A study of Mus musculus with 12 samples.

Results

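The 10 genes described here encode the transcription factor NRF2 (gene symbol Nfe2l2) and 9 enzymes of the antioxidant defence, Sod1, Sod2, Cat, Gpx1, Nqo1, Gclc, Gclm, Txnrd1 and Srxn1. They were chosen by name, as the rows of the deposited expression table that carry these gene symbols, and all 10 were found among the 22915 genes of the table. RNA had been sequenced from primary cardiomyocytes of male C57/Bl6 mice aged 12 weeks, in 12 libraries that form 4 conditions of 3 libraries each. The cells had been kept in culture for 24 h under normoxic conditions with PBS as the control, or with 25 ng/mL (the concentration given in the sample labels) of murine LIF (mLIF), murine OSM (mOSM) or a human-like form of OSM (hlOSM). In mouse cells mLIF acts through the LIF receptor (LIFR) and mOSM through the OSM receptor (OSMR), whereas hlOSM carries a loop of the human protein and engages both. The design therefore asks what each receptor, and both at once, did to these transcripts. No genotype differed between conditions. The labels do not say whether the 3 libraries of a condition came from separate animals or cultures. All p-values therefore measure the spread between these libraries. If a term shared by replicate number had been taken out before deposit, which was not tested, p-values of fits that ignore replicate number would be too small.

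NRF2 is held in the cytoplasm by KEAP1, which marks it for degradation, and is released when oxidants or electrophiles modify KEAP1. It then pairs with a small MAF protein and binds antioxidant response elements at genes for glutathione synthesis, for the thioredoxin and sulfiredoxin systems and for quinone detoxification, while BACH1 competes for the same elements. Superoxide dismutases, catalase and glutathione peroxidase remove superoxide and peroxide directly, a constant task in the heart muscle cell, whose contraction depends on mitochondrial respiration. NRF2 is controlled largely at the level of the protein, which these RNA data do not measure.

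The normalized counts of a library summed to between 2745748 and 2911891. They are values scaled and rounded by the authors, so that the sequencing depth behind them is unknown and no counting interval is given. All 10 genes passed the filter on low values (3 or more libraries at a value of 10 or above), as did 13184 genes in all. Replicate 3 of hlOSM was the highest library of its condition for 9 of the 10 genes, against 46.03% of all tested genes, and replicate 1 of PBS was the highest of its condition for 7 of them, against 26.64% of all tested genes. Over all tested genes, replicate 3 was also most often the highest library with PBS (46.77%), mLIF (41.78%) and mOSM (43.29%). The 8 cardiomyocyte markers examined (such as Myh6, Actn2 and Tnnt2) were present in every library, with a summed normalized count of 48201 to 50117 in the PBS-treated cells, 41849 to 43641 with mLIF, 33853 to 37907 with mOSM and 34690 to 37137 with hlOSM. Ttn made up most of these sums, with a mean of 32924 with PBS, 28727 with mLIF, 22907 with mOSM and 23564 with hlOSM. In bulk RNA, fewer cells of a type and less RNA per cell cannot be told apart.

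Srxn1, Txnrd1 and Nfe2l2 rose with mOSM and with hlOSM, Sod1 fell with both, and Gclm rose and Cat fell with hlOSM. All of these changes were below 1.5-fold. Each gene was compared on the scale of log2(normalized count + 1) with limma, fitted over all tested genes and all 12 libraries, and called at a Benjamini-Hochberg adjusted p below 0.05. With mLIF, 0 of the 10 genes were called, where 9.91% of all tested genes were (5.47% raised and 4.44% lowered), and 1 of the 10 had an unadjusted p below 0.05, beside 25.7% of all tested genes. With mOSM, 3 rose and 1 fell, beside 31.2% of all tested genes called (15.4% raised and 15.8% lowered), and the number that fell was 0 without mOSM replicate 1 and 2 without mOSM replicate 3. With hlOSM, 4 rose and 2 fell, beside 37.9% of all tested genes called (18.2% raised and 19.8% lowered). Without hlOSM replicate 3 these counts were 3 and 4. With a term for replicate number in the fit, 0, 4 and 5 of the 10 were called with mLIF, mOSM and hlOSM. The shares of all tested genes were then lower, at 5.95%, 25.3% and 31.2%. The median absolute log2 fold change of the 10 genes came to 0.08 for mLIF, 0.16 for mOSM and 0.21 for hlOSM. Over all tested genes the same median was 0.14, 0.19 and 0.22. The mean normalized count of the 10 genes ran from 185.5 (Gpx1) to 1851.2 (Txnrd1), whereas 9086 of the 13184 tested genes reached 50 in 3 or more libraries. The comparisons with all tested genes were not matched for level. The libraries did not overlap with those of PBS for 2 of the 10 genes with mLIF, 7 with mOSM and 6 with hlOSM, beside 30.3%, 40.1% and 47% of all tested genes. The 3 comparisons use the same PBS libraries.

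**Figure D1:**
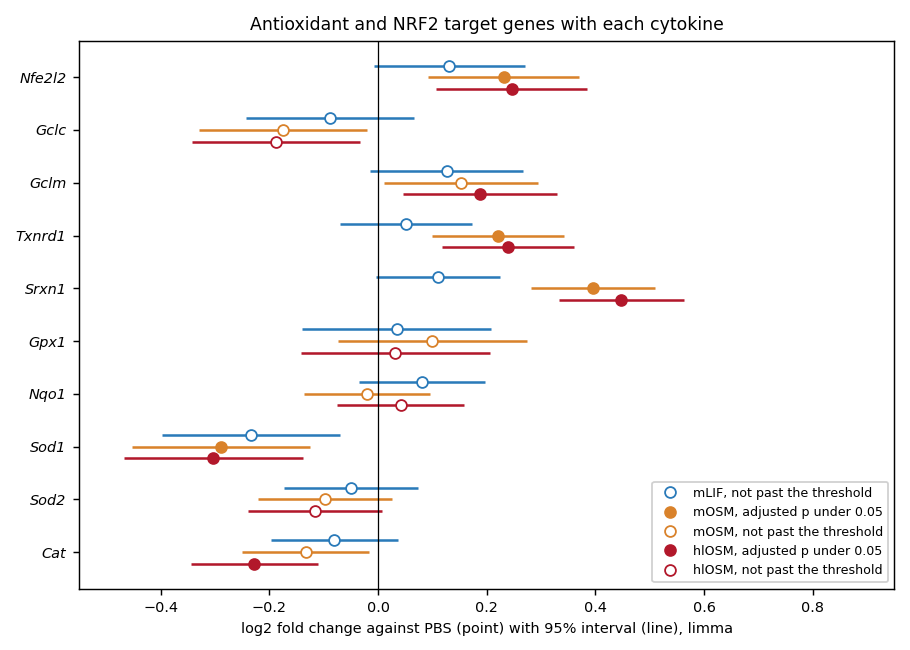
The horizontal axis gives the log2 fold change against PBS fitted with limma, and each gene has 1 point for mLIF, mOSM and hlOSM with its 95% interval as a line. Srxn1 lies farthest to the right at 0.40 with mOSM and 0.45 with hlOSM, Sod1 lies farthest to the left at -0.29 and -0.30, and the points of mOSM and hlOSM lie close together for every gene.

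Nfe2l2 (chr2:75675513-75704641, minus strand, mm10) is the regulator of the group. Its normalized counts were 461, 426 and 406 in the PBS-treated cells and 446, 468 and 502 with mLIF, against 488, 527 and 502 with mOSM and 504, 476 and 555 with hlOSM. Every library treated with either form of OSM lay above every PBS library, while the mLIF libraries overlapped with the control. The log2 fold change was 0.23 (SE 0.0668) with mOSM, adjusted p = 0.0106, and 0.25 with hlOSM, adjusted p = 0.00574. With mLIF it was 0.13, adjusted p = 0.222. The call with mOSM was lost without PBS replicate 3 (log2 fold change 0.19, adjusted p = 0.0613) and without mOSM replicate 2 (0.20, adjusted p = 0.0513). The call was also lost in a fit with no trend of variance on mean (adjusted p = 0.0506).

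Of 15 tested regulators and partners of NRF2, 1 rose and 1 fell with mLIF, 3 rose and 4 fell with mOSM and 4 rose and 4 fell with hlOSM, which is 13.3%, 46.7% and 53.3% of the list beside 9.91%, 31.2% and 37.9% of all tested genes. With mLIF, 0 rose with PBS replicate 2, PBS replicate 3 or any 1 mLIF library left out, and the number that fell was 0 with any 1 PBS or mLIF library or hlOSM replicate 2 left out and 3 without mOSM replicate 3. With any 1 library left out, 3 rose and 1 to 6 fell with mOSM, the 1 being without mOSM replicate 2, and 3 to 4 rose and 3 to 6 fell with hlOSM. Keap1, which encodes the adaptor that marks NRF2 for degradation, went from a normalized count of 327 ± 6.93 (SD, n = 3) in the control to 282 ± 11 with mOSM and 266 ± 10.1 with hlOSM. Its log2 fold change was -0.22 with mOSM, adjusted p = 0.0109, and -0.30 with hlOSM, adjusted p = 0.000659, and the call with mOSM was lost without mOSM replicate 2 (-0.19, adjusted p = 0.0534). Bach1, a repressor at antioxidant response elements, rose from 526 ± 25.7 to 644 ± 11 with mOSM and 657 ± 64.6 with hlOSM, by 0.29 and 0.32 on the log2 scale (adjusted p = 0.000957 and 0.000352). Dpp3, whose product binds KEAP1, rose by 0.53 with hlOSM (adjusted p = 0.000133). Bach2 fell from 39.3 ± 3.21 to 22.3 ± 3.21 with hlOSM, by 0.80 on the log2 scale (adjusted p = 0.000488). Nfe2l1, the gene of the related factor NRF1, fell from 1622 ± 42 to 1350 ± 44.2 with hlOSM, by 0.27 on the log2 scale (adjusted p = 0.000579). With mLIF, Bach1 was the gene that rose and Nfe2l1 the one that fell (-0.17, adjusted p = 0.0475). For Mafg, which encodes a small MAF partner, the log2 fold change was 0.06 with hlOSM, adjusted p = 0.428.

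Gclc and Gclm encode the catalytic and the modifier subunit of glutamate-cysteine ligase, the rate-limiting enzyme of glutathione synthesis. Gclm (chr3:122245557-122270732, plus strand) had normalized counts of 618, 566 and 575 with PBS and 609, 643 and 668 with mLIF, against 649, 694 and 614 with mOSM and 646, 615 and 749 with hlOSM. The lowest library of mOSM and of hlOSM lay below the highest PBS library, and replicate 3 of hlOSM stood above all others. The log2 fold change with hlOSM was 0.19 (SE 0.0682), adjusted p = 0.0335. It was not past the threshold without hlOSM replicate 3 (log2 fold change 0.11, adjusted p = 0.226), without PBS replicate 2 (adjusted p = 0.114) or without PBS replicate 3 (adjusted p = 0.0887). The same held without the filter on low values (adjusted p = 0.0527) and with no trend of variance on mean (adjusted p = 0.109). With mOSM the log2 fold change was 0.15, adjusted p = 0.0936, and it passed the threshold with quantile normalization (0.18, adjusted p = 0.0388) and without mOSM replicate 3 (0.20, adjusted p = 0.0428) or hlOSM replicate 3 (0.15, adjusted p = 0.0450). Exons of Gclm share 3.88% of their length with the gene model Gm6061 on the same strand and 4.71% with Gm17494 on the other.

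Gclc (chr9:77754535-77794485, plus strand) had lower values than the control in the same cells. Its normalized counts were 238, 231 and 244 with PBS and 208, 236 and 227 with mLIF, against 215, 214 and 202 with mOSM and 211, 190 and 226 with hlOSM. All libraries treated with mOSM or hlOSM lay below all PBS libraries. The log2 fold changes of -0.18 with mOSM and -0.19 with hlOSM were not past the threshold (adjusted p = 0.0777 and 0.0510). Without hlOSM replicate 3 the value with hlOSM was -0.25, adjusted p = 0.0189. It also passed the threshold with a filter at 50 (adjusted p = 0.0453), with trimmed mean of M-values rescaling (0.0456), with quantile normalization (0.0243) and without mOSM replicate 3 (0.0441). With mOSM it passed under quantile normalization (-0.21, adjusted p = 0.0297).

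Other genes of glutathione supply and recycling included larger changes. Of 17 tested, 3 rose with mLIF, 6 rose with mOSM, and 6 rose and 3 fell with hlOSM. That is 17.6%, 35.3% and 52.9% of the list, beside 9.91%, 31.2% and 37.9% of all tested genes. With any 1 library left out, 1 to 4 rose and 0 to 1 fell with mLIF, the 1 that rose being without PBS replicate 3 or mLIF replicate 3. With mOSM 0 to 1 fell, the 1 being without PBS replicate 2 or mOSM replicate 3. With hlOSM 5 to 6 rose and 1 to 3 fell, the 1 being without PBS replicate 3. Slc7a11, the cystine importer, rose from a normalized count of 90.7 ± 24.8 to 143 ± 22.4 with mLIF, 186 ± 17 with mOSM and 205 ± 47 with hlOSM. These are log2 fold changes of 0.68, 1.06 and 1.19 (adjusted p = 0.0110, 2.75e-05 and 5.11e-06), of which that with mLIF was not called without PBS replicate 3 (0.43, adjusted p = 0.0738) or mLIF replicate 3 (0.56, adjusted p = 0.0824). Glrx, the glutaredoxin that removes glutathione from proteins, rose from 49.7 ± 7.51 to 177 ± 13.2 with hlOSM, by 1.82 on the log2 scale (adjusted p = 4.83e-11). It was called as raised with mLIF too, by 0.81 to 1.03 with any 1 library left out. Gsr, which regenerates reduced glutathione, rose by 0.30 with mOSM and 0.45 with hlOSM (adjusted p = 0.00428 and 7.33e-05). Ggct, an enzyme of glutathione breakdown, rose by 0.69 with hlOSM (adjusted p = 4.10e-06). For Gss, the second enzyme of glutathione synthesis, the log2 fold change was 0.19 with mOSM and 0.11 with hlOSM (adjusted p = 0.0763 and 0.312). Oplah and Idh2 fell by 0.39 and 0.22 on the log2 scale with hlOSM (adjusted p = 0.000990 and 0.0122), and Idh2 was not called without PBS replicate 3 (-0.18, adjusted p = 0.0630).

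Srxn1 and Txnrd1 belong to the peroxiredoxin and thioredoxin system, Srxn1 as sulfiredoxin, which restores over-oxidized peroxiredoxins, and Txnrd1 as the cytosolic thioredoxin reductase, a selenoprotein. Srxn1 (chr2:152105516-152111376, plus strand) gave the largest change of the 10 genes with either form of OSM. Its normalized counts were 626, 595 and 577 with PBS and 649, 626 and 665 with mLIF, against 755, 778 and 833 with mOSM and 785, 822 and 846 with hlOSM. The libraries of mOSM and hlOSM lay above all libraries of PBS and of mLIF, and the mLIF libraries only touched the range of the control at 626. With mOSM the mean rose from 599 ± 24.8 to 789 ± 40.1 (SD, n = 3), by 0.40 on the log2 scale (SE 0.0551), adjusted p = 8.30e-06. With hlOSM it reached 818 ± 30.7, a log2 fold change of 0.45 or a gain of 36.4%, adjusted p = 1.15e-06. With mLIF the log2 fold change was 0.11, adjusted p = 0.214. Apart from a requirement of at least 1.5-fold, the calls with mOSM and hlOSM were kept under all alternatives that were run.

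The promoter sequence of Srxn1 is shown because this gene changed most. The run covers -250 to -9 from the RefSeq start site (GRCm38.p6, plus strand, chr2:152105274-152105515), and capitals mark matches, on either strand, to the AP-1 motif TGACTCA or to TGAGNNNGC, a form of the antioxidant response element that has a G for the C of the searched form TGACNNNGC and was added after the sequence had been read.
Srxn1: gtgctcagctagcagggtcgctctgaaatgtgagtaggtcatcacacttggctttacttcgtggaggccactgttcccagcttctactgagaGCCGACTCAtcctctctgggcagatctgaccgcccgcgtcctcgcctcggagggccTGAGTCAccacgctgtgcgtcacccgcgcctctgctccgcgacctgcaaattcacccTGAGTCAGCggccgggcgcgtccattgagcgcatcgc
The match that ends at -37 from the start site holds both motifs at once, TGAGNNNGC on the gene's strand and TGACTCA on the other. The match of Srxn1 to TGACNNNGC lies after the start site, outside the run.

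Among the 9 of 10 genes with an entry in the promoter table (250 bases before to 50 after the start site, both strands read), TGACNNNGC was found in 5, namely Gclm, Nfe2l2, Sod1, Srxn1 and Txnrd1, and in 13.99% of all 27025 genes with an entry. TGACTCA was found in Srxn1 and in 5.95% of all genes, and TGAGNNNGC in Srxn1 and in 19.85%. TTCNNNGAA, the STAT motif, was found in Sod2 and Txnrd1 and in 9.55% of all genes. The table holds 3 start sites for Txnrd1 and 1 for each other gene. The following stretches, from the same RefSeq build and all on the plus strand, are shown because their genes went in different directions. Capitals mark TGACNNNGC, which lies on the other strand in each and is printed as its reverse complement. They cover chr3:122245407-122245447 for Gclm, chr10:82859098-82859138 for the second start site of Txnrd1 and chr16:90220690-90220730 for Sod1.
Gclm: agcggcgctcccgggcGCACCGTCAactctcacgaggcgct
Txnrd1: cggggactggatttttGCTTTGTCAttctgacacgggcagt
Sod1: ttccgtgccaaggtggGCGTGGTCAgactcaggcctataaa
A match to the letters was present at genes that rose (Txnrd1, Srxn1 and Nfe2l2, and Gclm with hlOSM) and at a gene that fell (Sod1). Sequence outside these windows was not searched, so that a gene without a match may hold an element elsewhere.

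**Figure D2:**
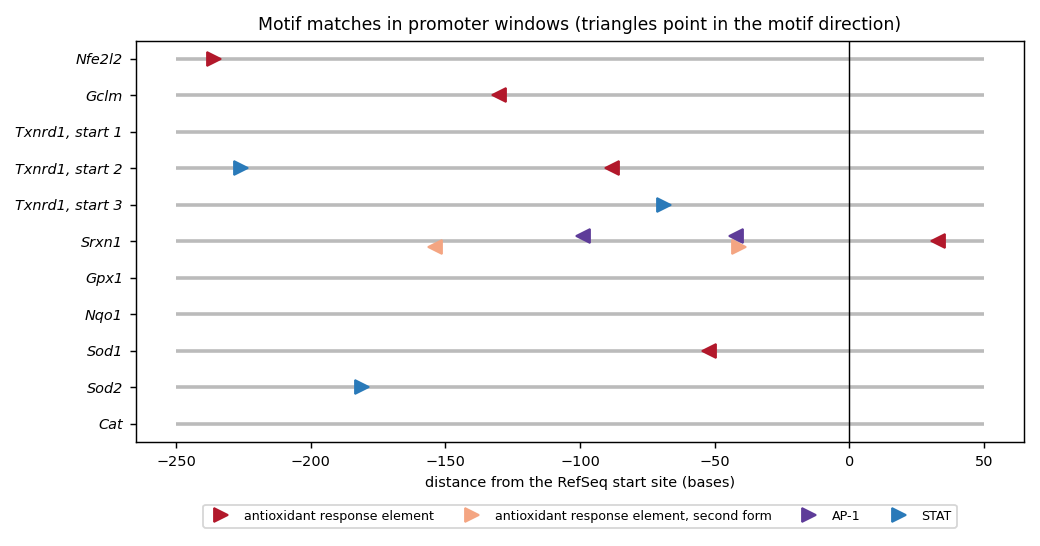
The horizontal axis gives the distance in bases from each RefSeq start site, 1 row per promoter window, and each triangle is 1 match to a motif, pointing in the direction in which the motif reads. Matches were present in 6 of the 9 genes. For the motifs other than TGAGNNNGC, which was added after the sequence of Srxn1 had been read, Srxn1 and Txnrd1 hold 3 matches each.

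Txnrd1 (chr10:82833951-82897712, plus strand) had normalized counts of 1791, 1675 and 1604 with PBS and 1805, 1689 and 1756 with mLIF, against 1821, 1964 and 2127 with mOSM and 1900, 1987 and 2095 with hlOSM. Both forms of OSM gave libraries that lay above all libraries of PBS and mLIF. The log2 fold change was 0.22 (SE 0.0586) with mOSM and 0.24 with hlOSM (adjusted p = 0.00605 and 0.00264), a gain of 16.5% and 18.0%. With mLIF it was 0.05, adjusted p = 0.624.

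Among 20 other tested peroxidases, peroxiredoxins, thioredoxins and related genes, 1 rose and 2 fell with mLIF, 2 rose and 1 fell with mOSM and 3 rose and 2 fell with hlOSM. That is 15%, 15% and 25% of the list, beside 9.91%, 31.2% and 37.9% of all tested genes. Txn1, the thioredoxin that Txnrd1 reduces, rose from a normalized count of 105 ± 8.54 to 143 ± 10 with mOSM and 142 ± 10.2 with hlOSM, by 0.45 and 0.44 on the log2 scale (adjusted p = 0.000457 and 0.000454). For Prdx1, a peroxiredoxin that sulfiredoxin repairs, the log2 fold change was -0.04 with mOSM and -0.07 with hlOSM (adjusted p = 0.660 and 0.447). Sesn1, a stress-induced sestrin, fell by 0.71 with mOSM and 0.93 with hlOSM on the log2 scale (adjusted p = 1.78e-05 and 3.93e-07). With mLIF, Sesn1 fell by 0.39 (adjusted p = 0.0213), and Txn1 was the gene that rose. With any 1 library left out, 0 to 2 genes of this list rose and 0 to 2 fell with mLIF, 0 having risen with PBS replicate 2, PBS replicate 3 or any 1 mLIF library left out and 0 having fallen without PBS replicate 3, mLIF replicate 2 or mLIF replicate 3. With mOSM 1 to 2 fell, the 2 being without mOSM replicate 3. With hlOSM 2 to 4 rose and 1 to 2 fell, the 1 with any PBS or hlOSM library left out.

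Gpx1 and Cat remove hydrogen peroxide, Gpx1 as the cytosolic selenium-dependent glutathione peroxidase and Cat as catalase of the peroxisome. Cat (chr2:103453849-103485160, minus strand) had normalized counts of 929, 871 and 909 with PBS and 883, 842 and 836 with mLIF, against 764, 853 and 855 with mOSM and 753, 746 and 815 with hlOSM. All libraries of mOSM and hlOSM lay below those of PBS, and those of mLIF overlapped with them. The mean went from 903 ± 29.5 to 771 ± 38 (SD, n = 3) with hlOSM, a log2 fold change of -0.23 (SE 0.0564), adjusted p = 0.00282. With mOSM it was 824 ± 52, a log2 fold change of -0.13, adjusted p = 0.0768, and without mOSM replicate 3 the value was -0.16, adjusted p = 0.0381. Gpx1 (chr9:108338903-108340343, plus strand) lay between 170 and 205 in all 12 libraries, with overlap of all conditions. Its log2 fold changes of 0.03, 0.10 and 0.03 with mLIF, mOSM and hlOSM had 95% intervals that reached from -0.14 to 0.21, -0.07 to 0.27 and -0.14 to 0.21.

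Sod1 and Sod2 turn superoxide into peroxide, Sod1 in the cytosol with copper and zinc and Sod2 in the mitochondrion with manganese. Sod1 (chr16:90220754-90226329, plus strand) had normalized counts of 313, 311 and 330 with PBS and 280, 263 and 268 with mLIF, against 234, 252 and 298 with mOSM and 272, 266 and 236 with hlOSM. Every library treated with a cytokine lay below every PBS library, and replicate 3 of mOSM was the highest treated library. The log2 fold change was -0.29 (SE 0.0791) with mOSM and -0.30 with hlOSM (adjusted p = 0.00741 and 0.00431), a loss of 18.2% and 18.9%. Without mOSM replicate 1 the value with mOSM was -0.21 and not called (adjusted p = 0.0615). With mLIF the log2 fold change was -0.23, adjusted p = 0.0624, and it passed the threshold when the fit held the mLIF and PBS libraries alone (adjusted p = 0.0145), when genes had to reach 50 (adjusted p = 0.0490), and without mOSM replicate 3 (adjusted p = 0.0241) or hlOSM replicate 3 (adjusted p = 0.0440).

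Sod2 (chr17:13006846-13040063, plus strand) had normalized counts of 846, 815 and 848 with PBS and 826, 805 and 794 with mLIF, against 780, 803 and 761 with mOSM and 721, 738 and 862 with hlOSM. The mOSM libraries lay below all PBS libraries, while hlOSM replicate 3 was the highest of all 12. The log2 fold change was -0.10 with mOSM and -0.12 with hlOSM (adjusted p = 0.226 and 0.128). Without hlOSM replicate 3 it was -0.20 with hlOSM, adjusted p = 0.00615. The extracellular dismutase Sod3 had low counts that rose with both forms of OSM, from 27 ± 1 to 96.7 ± 10 with mOSM and 88.7 ± 4.93 with hlOSM, by 1.80 and 1.68 on the log2 scale (adjusted p = 1.48e-09 and 2.66e-09). With mLIF the log2 fold change of Sod3 was -0.19, adjusted p = 0.389.

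Nqo1 (chr8:107388225-107403206, minus strand), the quinone reductase that is widely used as a readout of NRF2, was not called with any cytokine. Its normalized counts were 485, 466 and 470 with PBS and 495, 507 and 501 with mLIF, against 459, 468 and 474 with mOSM and 475, 465 and 525 with hlOSM. The mLIF libraries lay above those of PBS by a small margin, and those of mOSM and hlOSM overlapped with them. The fitted log2 fold changes came to 0.08 for mLIF, -0.02 for mOSM and 0.04 for hlOSM (adjusted p = 0.383, 0.819 and 0.591). Their 95% intervals reached from -0.04 to 0.20, -0.14 to 0.10 and -0.07 to 0.16.

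**Figure D3:**
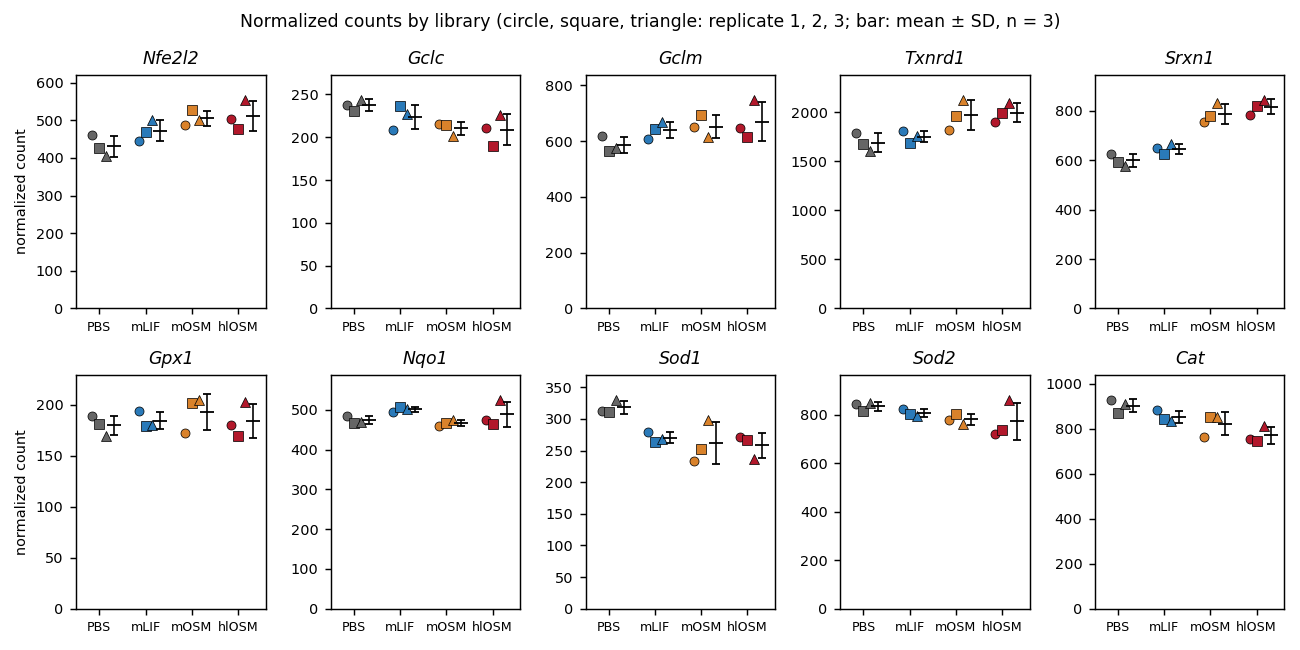
Each panel shows 1 gene, with the normalized count on a vertical axis that starts at 0 and the 4 conditions on the horizontal axis. Symbols are the single libraries and bars the mean ± SD (n = 3). In Srxn1 the 6 libraries of mOSM and hlOSM lie between 755 and 846, above the 577 to 665 of the other libraries, whereas Gpx1 stays within 170 to 205 throughout.

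Whether both receptors together did more than OSMR alone was asked by setting hlOSM against mOSM. For 0 of the 10 genes did this difference pass the threshold in limma, where 0.106% of all tested genes did, and 0 of the 10 had an unadjusted p below 0.05, beside 7.49% of all tested genes. The libraries of the pair of conditions were free of overlap for 0 of the 10, beside 9.74% of all tested genes. The 95% intervals of the difference over the 10 genes lay between -0.24 and 0.18 on the log2 scale. The largest difference was that of Cat, -0.09 (95% interval -0.21 to 0.02), adjusted p = 0.737.

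Compared with mLIF, 2 of the 10 genes were higher with hlOSM and 0 lower, beside 16.6% of all tested genes called (7.42% raised and 9.22% lowered). Srxn1 was higher by 0.34 on the log2 scale (adjusted p = 0.000126) and Txnrd1 by 0.19 (adjusted p = 0.0300). The call of Txnrd1 was lost without mLIF replicate 2 or 3 (adjusted p = 0.140 and 0.0723) and without hlOSM replicate 2 or 3 (adjusted p = 0.0736 and 0.118). With mOSM, 1 gene was higher than with mLIF and 0 were lower, beside 11.8% called of all tested genes (6.05% raised and 5.76% lowered). That gene was Srxn1, with a difference of 0.29 (adjusted p = 0.000996). For Txnrd1 the difference between mOSM and mLIF was 0.17, adjusted p = 0.0654. The difference of Sod1 against mLIF was -0.06 with mOSM (95% interval -0.22 to 0.11, adjusted p = 0.737) and -0.07 with hlOSM (-0.23 to 0.09, adjusted p = 0.626).

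A departure from additivity, that is, whether hlOSM differed from mOSM by another amount than mLIF differed from PBS, was called for 0 of the 10 genes and for 0.167% of all tested genes (limma), and 0 of the 10 had an unadjusted p below 0.05, beside 11.5% of all tested genes. The value with the smallest adjusted p was that of Sod1, 0.22 (95% interval -0.01 to 0.45, adjusted p = 0.461). A test for any difference among the 4 conditions called 5 of the 10 genes, beside 34.2% of all tested genes. In the order of their adjusted p these were Srxn1 (1.15e-06), Txnrd1 (0.00375), Sod1 (0.0124), Nfe2l2 (0.0175) and Cat (0.0180). Without PBS replicate 3 the test called 3 of the 10, and with no trend of variance on mean it called 1.

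To compare levels between the genes, normalized counts were divided by the length in kilobases of 1 principal transcript of each gene. In the PBS-treated cells the order of levels per kilobase was then Sod1 (496 ± 16.3, SD, n = 3), Txnrd1 (479 ± 26.7), Cat (346 ± 11.3), Nqo1 (305 ± 6.45), Srxn1 (213 ± 8.81), Nfe2l2 (174 ± 11.2), Gpx1 (168 ± 8.90), Sod2 (143 ± 3.16), Gclm (105 ± 4.97) and Gclc (69.4 ± 1.90). The libraries of Sod1 overlapped with those of Txnrd1, and those of Nfe2l2 with those of Gpx1. All other neighbours in the order were separate. The order depends on the length used, since by all annotated exons of a gene Cat stood first at 346 ± 11.3 and Sod1 was the ninth at 80.1 ± 2.63. The values per kilobase of Txnrd1 with hlOSM were 565 ± 27.7 and those of Sod1 402 ± 30.1.

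Further targets attributed to NRF2 were examined, among which Slc7a11 is counted again. Of 25 tested, 5 rose and 1 fell with mLIF, 11 rose and 3 fell with mOSM and 11 rose and 3 fell with hlOSM. That is 24%, 56% and 56% of the list, beside 9.91%, 31.2% and 37.9% of all tested genes. With any 1 library left out, 1 to 6 rose and 0 to 1 fell with mLIF, the lowest count raised being without mLIF replicate 3, 8 to 12 rose and 3 to 4 fell with mOSM, and 9 to 12 rose and 3 to 4 fell with hlOSM. With mLIF 0 fell with PBS replicate 1, PBS replicate 3 or any 1 mLIF library left out. Their median log2 fold change was 0.05, 0.13 and 0.06, beside medians of 0.00 over all tested genes. Akr1b8, an aldo-keto reductase, went from a normalized count of 73.3 ± 19 to 197 ± 17.3 with hlOSM, a log2 fold change of 1.44 (adjusted p = 3.38e-08). Abcc4, an export pump of the multidrug resistance family, rose by 0.78 (adjusted p = 1.49e-08). Hmox1, the haem-degrading oxygenase, rose from 788 ± 93 to 983 ± 125 with mOSM and 991 ± 58.6 with hlOSM, by 0.32 and 0.33 (adjusted p = 0.00450 and 0.00240). With mLIF, Akr1b8 and Abcc4 rose by 0.76 and 0.30 (adjusted p = 0.00144 and 0.00995), and Aox1 fell by 0.22 (adjusted p = 0.0221). Hmox1 was also called as raised with mLIF, a call kept in 5 of 12 fits with 1 library left out. Ephx1, the microsomal epoxide hydrolase, and Aox1, aldehyde oxidase, fell by 0.87 and 0.56 on the log2 scale with hlOSM (adjusted p = 1.55e-07 and 1.82e-07).

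**Figure D4:**
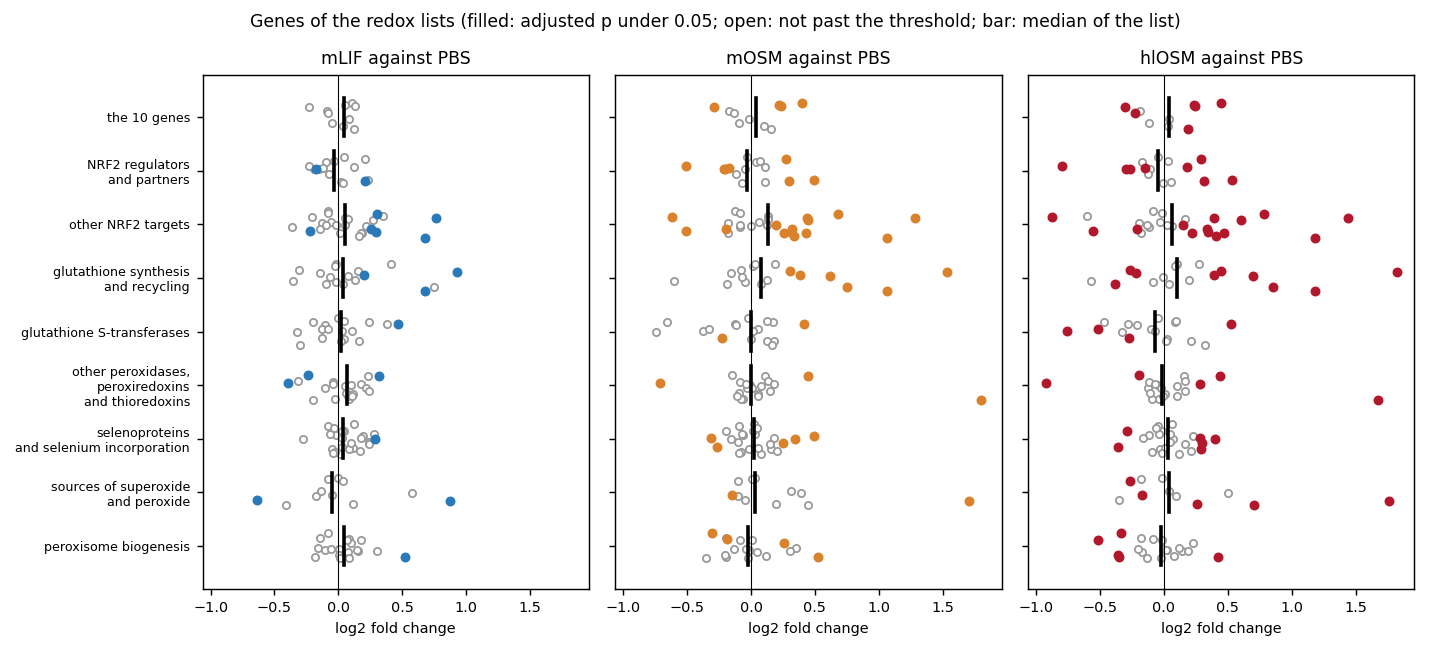
Each panel shows 1 cytokine against PBS, with the log2 fold change on the horizontal axis and 1 row per gene list. Points are tested genes, filled where the adjusted p was below 0.05, and bars are the medians of the lists. The medians lie between -0.07 and 0.13 in every list, while single genes such as Glrx (1.82 with hlOSM) lie far to the right.

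Of 17 tested glutathione S-transferases, which couple glutathione to electrophiles, 1 rose with each cytokine, while 0, 1 and 3 fell with mLIF, mOSM and hlOSM. That is 5.88%, 11.8% and 23.5% of the list, beside 9.91%, 31.2% and 37.9% of all tested genes. The number that fell with mOSM was 0 without PBS replicate 2 or mOSM replicate 2 and 2 without mOSM replicate 3, and without hlOSM replicate 2 the number that rose with hlOSM was 2. The one that rose in the fit of all libraries was Mgst1, by 0.47, 0.41 and 0.52 (adjusted p = 0.00562, 0.00358 and 0.000327), and Gsta3 fell with hlOSM from 41.3 ± 9.61 to 23.7 ± 1.53, by 0.75 on the log2 scale (adjusted p = 0.00328). Of 24 tested selenoproteins and genes of selenium incorporation, 1 rose with mLIF, 3 rose and 2 fell with mOSM and 4 rose and 2 fell with hlOSM. These were 4.17%, 20.8% and 25% of that list. With any 1 library left out, 0 to 2 rose with mLIF, the 0 being without PBS replicate 2, PBS replicate 3, mLIF replicate 1 or mLIF replicate 3, and 1 to 2 fell with mOSM, the 1 being without PBS replicate 3, mOSM replicate 1 or mOSM replicate 2. With hlOSM these counts were 2 to 4 and 1 to 2 with any 1 library left out, the 2 raised being those without PBS replicate 3, hlOSM replicate 1 or hlOSM replicate 3. Sephs2, which makes the selenium donor, rose by 0.40 with hlOSM (adjusted p = 0.000549), and Selenop, the selenium carrier, fell by 0.36 on the log2 scale (adjusted p = 0.000490). Sephs2 was also the gene of this list that rose with mLIF, by 0.29 (adjusted p = 0.0268). Among 20 genes of peroxisome biogenesis, the compartment of catalase, 1 rose with mLIF, 2 rose and 2 fell with mOSM and 1 rose and 4 fell with hlOSM. These were 5%, 20% and 25% of that list, beside the same shares of all tested genes as above. With mLIF 0 rose without mLIF replicate 1 or 2. With mOSM 1 rose with any 1 PBS library, mLIF replicate 2, mOSM replicate 2 or mOSM replicate 3 left out, and 1 fell without PBS replicate 2, PBS replicate 3 or mOSM replicate 2. With hlOSM 0 rose without hlOSM replicate 3 and 2 without mOSM replicate 3. Pex2 rose by 0.42 with hlOSM (adjusted p = 0.0135), though not without hlOSM replicate 3 (0.26, adjusted p = 0.118), and Abcd3, a fatty acid transporter of the peroxisome, fell by 0.34 on the log2 scale (adjusted p = 0.000335). Pex2 was also the peroxisome gene that rose with mLIF.

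Genes whose products generate superoxide or peroxide were tested in 11 cases of 20 listed, the others being too low or without a row. With hlOSM 3 of them rose and 2 fell, and 1 rose and 1 fell with each of the other cytokines. That is 18.2% of those tested with mLIF, 18.2% with mOSM and 45.5% with hlOSM. Over all tested genes the shares were 9.91%, 31.2% and 37.9%. Xdh, xanthine oxidoreductase, rose from a normalized count of 179 ± 59.4 to 318 ± 46.2 with mLIF, 568 ± 90.9 with mOSM and 590 ± 85.9 with hlOSM. Its log2 fold change was 0.87, 1.71 and 1.76 (adjusted p = 0.00203, 5.37e-08 and 2.42e-08). Without PBS replicate 2, 1 gene of this list rose with hlOSM, and without PBS replicate 3, 0 fell. With mOSM 0 fell without PBS replicate 1, PBS replicate 3 or mOSM replicate 1, and 2 rose without PBS replicate 1 or hlOSM replicate 3. With mLIF 0 fell without PBS replicate 3 or mLIF replicate 3. In none of these lists was a gene called between hlOSM and mOSM by limma.

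Markers of other cell types moved with the same treatments. The summed normalized count of 7 endothelial markers was 1089 to 1147 with PBS, 1353 to 1511 with mOSM and 1363 to 1464 with hlOSM, and 5 and 6 of the 7 rose. That of 6 markers of smooth muscle cells and pericytes was 508 to 673 with PBS and 287 to 292 with hlOSM, and 4 of 5 tested fell, Cnn1 being below 10 in every library. The 8 fibroblast markers summed to 2296 to 2526 with PBS and 2307 to 2540 with hlOSM, of which 3 rose and 5 fell. The 7 leukocyte markers in the table summed to 304 to 328 with PBS and 322 to 392 with hlOSM, with Cd14 below 10 throughout. Of 6 tested, 1 rose with hlOSM (Cd68, from a mean of 53.7 to 132) and 1 fell (Lyz2, from 176 to 146). Their median log2 fold change was -0.16. Of the 8 cardiomyocyte markers 7 fell with either form of OSM and 6 with mLIF. The part of these shifts in the changes of the antioxidant genes was not tested.

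The genes most like Srxn1, Txnrd1 and Sod1, the 3 of the 10 with the smallest adjusted p over the 4 conditions, were found from the correlation of log2 values over the 12 libraries, among 8660 tested genes with a mean of at least 50. The points share the 4 conditions and the same libraries, and no test was made. For Srxn1 they were Mapkapk2 (Pearson's r = 0.99), Ell2 (0.99) and Tle3 (0.99). For Txnrd1 they were Pabpc1 (0.98), Eif1a (0.98) and Zwint (0.97), and for Sod1 they were Cdc37 (0.97), Dek (0.97) and Kif1c (0.96).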

How the data were processed

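Per the sample labels, RNA of cultured mouse cardiomyocytes was made into stranded total RNA libraries (SMARTer) and sequenced. The submitters' processing notes name STAR 2.7.7a, featureCounts 1.6.5 and the build mm10. The authors deposited 1 table of normalized counts per gene, rounded to whole numbers, which is treated as a score because the scaling method is not given in the sources used here. The authors' annotation columns gave symbols and coordinates. Here, log2(value + 1) was fitted with limma 3.58.1 (R 4.3.3) with a trend of variance on mean, for 13184 genes with at least 10 in at least 3 libraries, 4 conditions in 1 fit and no covariate, two-sided, with Benjamini-Hochberg adjusted p over all tested genes and a threshold of 0.05. The calculation was tested on simulated data. Transcript lengths came from GENCODE M21 and promoter sequences from RefSeq (GRCm38.p6). The gene set, the gene lists and the tests were chosen with earlier results of these data known. Named genes outside the set were 9 fixed ones, up to 2 per list and direction with the smallest adjusted p for hlOSM against PBS, and, for 3 of the set, the 3 most correlated genes, some of which are not reported here. Alternatives were other pseudocounts (0.1 and 5), filters, scalings, a replicate block, a minimum change of 1.5-fold and leaving out each library.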

Additional observations from a re-analysis of the deposited data

How the results depend on the processing

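The 12 libraries give 3 per condition, so that differences of the size of Gclm or Gclc sit at the edge of what could be called, and the values carry no depth. The pseudocount (0.1 or 5) and a robust fit kept all counts of the 10 genes within 1.5 times. With quantile normalization, 1 gene rose with mLIF, 2 fell with mOSM, 1 was lower with hlOSM than with mLIF and 2 were higher with mOSM than with mLIF. With a minimum of 50 in place of 10, or only the libraries compared in the fit, 1 gene fell with mLIF. Without a filter, or with no trend of variance on mean, 1 gene was higher with hlOSM than with mLIF, and with no trend the test over the 4 conditions called 1 gene. With a required change of 1.5-fold, 0 genes were called in any comparison between a pair of conditions. Leaving out 1 library at a time, 0 to 1 fell with mLIF, 0 to 2 with mOSM and 2 to 4 with hlOSM, 1 to 2 were higher and 0 to 1 lower with hlOSM than with mLIF, 1 to 2 were higher with mOSM than with mLIF, and the test over the 4 conditions called 3 to 6. Only uncalled values changed sign: Nqo1 with mOSM (0.0034) and Txnrd1 for hlOSM against mOSM (-0.0070) with quantile normalization, and Gpx1 for hlOSM against mLIF (0.0070) with trimmed mean of M-values rescaling. With 1 library left out, signs changed for mLIF against PBS in Gpx1 -0.0058 to 0.070, hlOSM against PBS in Gpx1 -0.040 to 0.088 and Nqo1 -0.011 to 0.076, hlOSM against mOSM in Sod1 -0.089 to 0.084, Sod2 -0.099 to 0.030, Gclc -0.070 to 0.054, Gclm -0.048 to 0.094, Txnrd1 -0.037 to 0.075 and Nfe2l2 -0.045 to 0.065, hlOSM against mLIF in Gpx1 -0.074 to 0.053 and Gclm -0.021 to 0.12, mOSM against mLIF in Sod1 -0.15 to 0.020, Cat -0.080 to 0.00099 and Gclm -0.019 to 0.069. The cause of these shifts was not tested. The fit on the compared libraries alone gives no value for the test over the 4 conditions or for additivity, nor does the 1.5-fold requirement for the former.

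Across genes, the deviations of libraries with the same replicate number from their condition means did not go together. Over 6626 genes the correlation of these deviations was -0.5176 to 0.0221 in 18 pairs with the same number. Apart from replicate 3 of mLIF with replicate 3 of hlOSM (0.0221), these pairs lay below 0. In 36 pairs with different numbers it was -0.1185 to 0.4813, and 0 of 12 libraries correlated best with their own number. A shift shared by all genes of a library does not enter this correlation. The trimmed mean of M-values scaling was 1.0192 to 1.0356 for replicate 3 of the 4 conditions and at most 0.99282 for the other libraries. If a term shared by replicate number had been taken out before the values were deposited, the correlations could not show that term. Such a removal would by itself push the correlations between libraries of the same number below 0. Whether a term had been removed was not tested. With the replicate number as a block, 3 genes rose with hlOSM in place of 4, since Gclm (0.19) had an adjusted p of 0.0502, and the other counts of the 10 genes stayed as they were. Over all tested genes, the block fit called 5.95% with mLIF, 25.3% with mOSM and 31.2% with hlOSM. Without the block these shares were 9.91%, 31.2% and 37.9%. If a replicate term had been removed beforehand, p-values of the fit without a block would be too small. Apart from values given for the block, the calls and shares in the Results come from fits without it. In the lists the block fit gave, with hlOSM, 2 raised and 1 lowered selenoprotein gene in place of 4 and 2, and 1 lowered gene in place of 2 both among the other peroxidases and among the sources of superoxide. With mOSM it gave 0 lowered S-transferases in place of 1, 1 lowered selenoprotein gene in place of 2, 0 lowered sources of superoxide in place of 1, and 1 raised and 1 lowered peroxisome gene in place of 2 and 2. With mLIF it gave 0 raised and 0 lowered regulators of NRF2 in place of 1 and 1, 3 raised targets of NRF2 in place of 5, 0 raised and 1 lowered peroxidase gene in place of 1 and 2, and 0 raised selenoprotein genes in place of 1. Over all settings without a library left out, counts of the lists moved by over 1.5 times in 100 cases and stayed within it in 428, and with 1 library left out in 102 and 474.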
